A study of Mus musculus with 24 samples.

Results

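The genes described here are 51 cell cycle and DNA replication genes, found by gene symbol among the 35275 rows of the expression table. All 51 symbols were found, each on a row marked protein-coding. They were divided by role into 28 replication genes, which act at or before DNA synthesis, and 23 mitosis genes, which act from late S phase to cell division. Expression was measured by RNA sequencing of white fat from mice. The 4 groups were gonadal fat of knockout mice, gonadal fat of control mice, inguinal fat of knockout mice and inguinal fat of control mice. Knockout mice carry a conditional deletion of FoxO1 in adipose tissue, and controls carry the floxed FoxO1 gene. Neither the promoter that drives Cre, nor the age of the mice, nor whether controls carried Cre is stated in the labels. The groups address what the loss of FoxO1, a transcription factor restrained by insulin signalling, changes in each fat depot.

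Before a cell divides, the MCM helicase is loaded onto replication origins and activated by CDC45 and the GINS complex. Replication factor C then places the sliding clamp PCNA on DNA for the polymerases. E2F factors switch on many of these genes as a cell enters S phase, whereas genes for mitosis are switched on later, mainly through the MuvB complex with B-MYB and FOXM1, which is recruited to a promoter element called the cell cycle homology region (CHR). In resting fat few cells divide, and transcripts of these genes can come from any dividing cell of the pad, among them adipocyte precursors, endothelial cells and immune cells.

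Each group held 6 libraries, with 14953657 to 25438811 reads assigned to genes per library. The column names carry an animal number, read here as 3 knockout mice (M5, M9, M12) and 3 control mice (M6, M7, M10) with 2 libraries of each pad. Libraries of 1 pad correlated at 0.991 to 0.996 across genes and those of different mice of a group at 0.897 to 0.985, so libraries of an animal were averaged and n is 3 mice per group. That the numbers are separate animals is read from the names, and p-values measure the spread between them. Foxo1, the targeted gene, had 4.07, 4.46 and 4.01 FPKM in gonadal fat of knockout mice, against 13.6, 7.87 and 9.53 FPKM in controls. In inguinal fat it had 4.12, 2.49 and 5.69 FPKM in knockout mice, against 19.7, 13.0 and 14.5 FPKM in controls. The groups did not overlap in either depot, with limma adjusted p of 0.408 in gonadal and 0.129 in inguinal fat. FPKM are read counts scaled by gene length and by the reads assigned in the library. Markers of fat cells, such as Adipoq and Plin1, were abundant in all 12 pads, with the 10 markers summing to 10914 to 36671 FPKM.

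The promoters of both classes were searched for short elements, and 5 are shown because the results below turn on these genes. RefSeq promoters of the build GRCm38.p6, from 250 bases before to 50 bases after the start of the gene, were matched for 43 of the 51 genes. Promoters were counted by gene, and a gene held an element if any of its promoter entries did. The cell cycle homology region (TTTGAA or TTCGAA, either strand) occurred in 15 of 19 mitosis promoters, 5 of 24 replication promoters and those of 21.7% of all 27025 genes with an entry. The E2F element (TTTCCCGC, TTTCGCGC, TTTGCCGC or TTTGGCGC, either strand) occurred in 9 of 24 replication promoters, in 1 of 19 mitosis promoters, that of Cdk1, and in 2.60% of all. CCAAT, the element bound by NF-Y, occurred in 17 of 19 mitosis promoters, 16 of 24 replication promoters and 41.1% of all. The forkhead element GTAAACA, which FoxO factors can bind, occurred in none of 19 mitosis promoters, in 2 of 24 replication promoters (Mcm7 and Cdc45) and in 4.05% of all. Capitals mark these 4 kinds of element below, some of which overlap. Cdk1 (chr10:69352863-69353162, minus strand) and Mki67 (chr7:135716330-135716629, minus strand) are mitosis genes, and Mcm5 (chr8:75109259-75109558, plus strand), Cdc45 (chr16:18811923-18812222, minus strand) and Rfc4 (chr16:23127681-23127980, minus strand) are replication genes. A match is a description of letters and not a site of binding.
Cdk1: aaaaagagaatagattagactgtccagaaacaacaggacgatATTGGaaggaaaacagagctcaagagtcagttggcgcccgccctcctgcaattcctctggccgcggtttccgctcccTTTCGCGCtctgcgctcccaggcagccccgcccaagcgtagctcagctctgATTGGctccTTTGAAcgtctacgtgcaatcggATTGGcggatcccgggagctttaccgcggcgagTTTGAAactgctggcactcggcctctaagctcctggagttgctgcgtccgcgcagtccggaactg
Mki67: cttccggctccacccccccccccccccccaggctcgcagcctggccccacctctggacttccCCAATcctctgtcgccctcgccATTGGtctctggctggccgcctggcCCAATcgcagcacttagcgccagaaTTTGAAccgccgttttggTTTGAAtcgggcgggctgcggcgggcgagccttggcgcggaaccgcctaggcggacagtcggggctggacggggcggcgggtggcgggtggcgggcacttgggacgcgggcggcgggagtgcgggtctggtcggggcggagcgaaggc
Mcm5: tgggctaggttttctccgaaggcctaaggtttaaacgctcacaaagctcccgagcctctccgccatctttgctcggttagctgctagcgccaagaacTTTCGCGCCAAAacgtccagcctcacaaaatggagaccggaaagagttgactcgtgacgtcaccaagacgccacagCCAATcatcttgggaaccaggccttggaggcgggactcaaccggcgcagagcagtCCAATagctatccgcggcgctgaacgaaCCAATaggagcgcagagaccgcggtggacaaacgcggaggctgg
Cdc45: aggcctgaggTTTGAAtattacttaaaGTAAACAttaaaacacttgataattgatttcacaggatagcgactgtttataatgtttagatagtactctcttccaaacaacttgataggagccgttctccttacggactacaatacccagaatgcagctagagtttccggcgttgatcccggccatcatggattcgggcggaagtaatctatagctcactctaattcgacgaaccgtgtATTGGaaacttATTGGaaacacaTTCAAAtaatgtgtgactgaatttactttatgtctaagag
Rfc4: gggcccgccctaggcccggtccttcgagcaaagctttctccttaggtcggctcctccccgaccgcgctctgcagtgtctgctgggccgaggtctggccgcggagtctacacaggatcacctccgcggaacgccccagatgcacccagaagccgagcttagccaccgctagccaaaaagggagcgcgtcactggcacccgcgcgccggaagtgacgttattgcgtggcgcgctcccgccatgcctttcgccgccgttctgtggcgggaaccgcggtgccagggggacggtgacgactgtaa
The Cdk1 window holds an E2F element together with CHR and CCAAT elements, Mki67 holds CHR and CCAAT elements, and Mcm5 holds overlapping E2F elements with CCAAT elements. The Cdc45 window holds CHR, CCAAT and forkhead elements, and the Rfc4 window holds none of the 4.

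Replication genes were expressed at low to moderate levels per length, led by the sliding clamp. Pcna averaged 67.04 ± 12.8 FPKM in gonadal fat of knockout mice and 74.3 ± 15.3 FPKM in that of controls, and 37.4 ± 6.39 and 36.2 ± 6.21 FPKM in inguinal fat of knockout and control mice (SD, n = 3 each). Rfc2, a subunit of the clamp loader, and Rrm1, the large subunit of ribonucleotide reductase, followed with 20.1 and 10.6 FPKM over the 12 pads. Of the mitosis genes, Cenpa, the centromeric histone, was highest with 9.31 FPKM over the 12 pads. Cdc20, an activator of the anaphase-promoting complex, had 6.37 FPKM and Ccnb2, a mitotic cyclin, 5.02 FPKM. The lowest were Cenpf, a kinetochore protein, with 0.527 FPKM, and Brca1, a repair factor, with 0.508 FPKM.

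The plot of class levels gives the mean of each class in every pad. In gonadal fat the mean of log2(FPKM + 0.5) over the 23 mitosis genes was 2.38, 1.87 and 1.75 in knockout mice M5, M9 and M12, against 1.78, 2.52 and 1.97 in controls M6, M7 and M10. In inguinal fat it was 1.10, 0.81 and 1.32 in knockout mice, against 0.78, 0.34 and 0.61 in controls. The groups overlapped in gonadal fat and did not in inguinal fat, where the lowest knockout pad, M9, lay just above the highest control pad, M6. Over the 28 replication genes the inguinal means were 1.98, 1.59 and 2.14 in knockout mice, against 1.92, 1.41 and 1.75 in controls, and overlapped. The gap between the classes, mitosis minus replication, was -0.88, -0.78 and -0.82 in inguinal pads of knockout mice, against -1.15, -1.07 and -1.15 in those of controls, without overlap. In gonadal pads the gap was -0.26, -0.50 and -0.62 in knockout mice, against -0.60, -0.19 and -0.47 in controls, with overlap. The 2 libraries of a pad differed by at most 0.14 in either class mean.

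**Figure D1:**
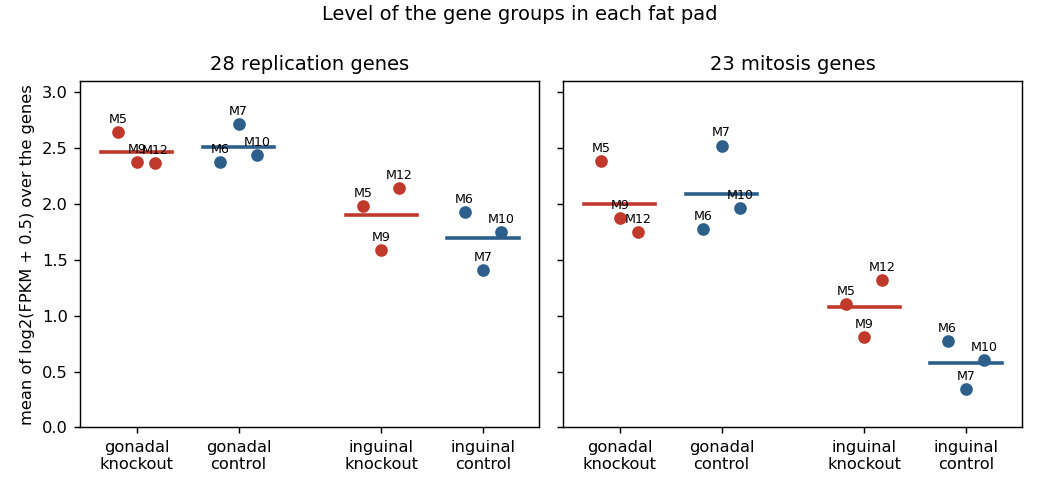
Mean of log2(FPKM + 0.5) over the 28 replication genes (left panel) and the 23 mitosis genes (right panel), 1 point per fat pad labelled by mouse, with the mean of the 3 mice as a line (knockout red, control blue). Inguinal mitosis levels of the knockout mice, 0.81 to 1.32, lie above those of the controls, 0.34 to 0.78, and all other pairs of groups of the same depot overlap.

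In inguinal fat, transcripts for mitosis were higher in knockout mice across nearly the whole class. Of the 23 mitosis genes 22 had a difference above 0, with a median of 0.48 on the log2(FPKM + 0.5) scale, and Ube2c alone was below 0 with -0.03. Of all 13621 genes tested 29.4% had a difference above 0, with a median of -0.10. The mitosis genes can shift together with single mice, so 22 of 23 genes are not separate observations, and n remains 3 mice per group. In gonadal fat the same count was 4 of 23 with all mice, 0 of 23 without M5 and 20 of 23 without M7. No mitosis gene passed the threshold, a limma adjusted p under 0.05, which 3 genes of 13621 (0.022%) passed, all of them lower in knockout mice. At an unadjusted p under 0.05, 9 of the 20 mitosis genes that passed the filter on low values were higher and none lower, where 448 of all 13621 genes (3.29%) were higher and 1576 (11.6%) lower. That count was 3 without M12, 4 without M5, 6 without M7 and 13 without M9. In 12 of the 23 every knockout mouse lay above every control mouse, as in 719 of all 13621 genes (5.28%), and in none did every knockout mouse lie below, as in 17.3% of all genes. Genes with a mean under 0.5 FPKM over the 6 mice were not tested, which left out Bub1, Cenpe and Cenpf. In bulk tissue, more dividing cells and more RNA per cell cannot be told apart.

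Of the mitosis roles, the cyclins and their kinase had the highest median difference, 0.74. Cdk1 (chr10:69336635-69352938 in mm10), the kinase that drives entry into mitosis, had 1.82, 1.94 and 2.49 FPKM in knockout mice, against 1.02, 1.07 and 0.962 FPKM in controls. Every knockout mouse lay above every control, and the controls were tightly grouped. The log2 difference was 0.76 (SE 0.14, limma adjusted p = 0.144), and the exact permutation p was 0.1, the smallest that 20 regroupings allow. Across the alternative settings its adjusted p lay between 9.12e-05 and 0.461. Ccnb1, the B-type cyclin that activates CDK1, had 1.73, 0.949 and 2.21 FPKM in knockout mice, against 0.687, 0.609 and 0.599 FPKM in controls (0.87, SE 0.25, adjusted p = 0.217). Its knockout mice were spread, with M9 lowest, yet all lay above the controls. Ccna2, the cyclin of S and G2 phase, had 2.27, 1.82 and 2.79 FPKM in knockout mice, against 1.58, 0.850 and 1.19 FPKM in controls (0.72, SE 0.22, adjusted p = 0.230). Ccnb2 differed by 0.39 with overlapping groups.

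Chromosome and spindle genes followed. Mki67, the antigen Ki-67 used to count cycling cells, had 1.92, 1.64 and 2.37 FPKM in knockout mice, against 1.41, 0.757 and 1.11 FPKM in controls (0.65, SE 0.21, adjusted p = 0.242). Top2a, the topoisomerase that untangles sister chromatids, had 3.16, 2.34 and 3.87 FPKM in knockout mice, against 2.13, 1.44 and 1.92 FPKM in controls (0.63, SE 0.21, adjusted p = 0.255). Neither gene overlapped between the groups. Prc1, which bundles microtubules of the central spindle, had 1.53, 2.05 and 2.20 FPKM in knockout mice, against 0.951, 1.04 and 0.843 FPKM in controls (0.74, SE 0.16, adjusted p = 0.160). Kif11, the motor that separates spindle poles, had 1.31, 0.934 and 1.60 FPKM in knockout mice, against 0.731, 0.406 and 0.696 FPKM in controls (0.68, SE 0.21, adjusted p = 0.238). Both separated the groups. Kif20a, a kinesin of cytokinesis, did not, and differed by 0.04, with 0.541, 0.635 and 0.637 FPKM in knockout mice, against 0.673, 0.653 and 0.409 FPKM in controls. Tpx2, an activator of Aurora A, differed by 0.43 without overlap, and Kif23 and Nusap1 by 0.35 and 0.33 with overlap.

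All 6 mitotic kinase and checkpoint genes had differences above 0, from 0.37 for Aurkb to 0.66 for Bub1b. Aurka, a spindle pole kinase, had 2.43, 1.79 and 2.52 FPKM in knockout mice, against 1.47, 1.28 and 1.63 FPKM in controls, without overlap (0.48, SE 0.16, adjusted p = 0.260). Bub1b, of the spindle checkpoint, had 1.51, 0.897 and 2.09 FPKM in knockout mice, against 0.947, 0.565 and 0.688 FPKM in controls, and M9 lay within the range of the controls. Plk1, another mitotic kinase, differed by 0.62 (SE 0.33), and Birc5, the survivin subunit of the Aurora B complex, by 0.45 (SE 0.20), both with overlap. Among the genes too low to test, Bub1 had 0.459, 0.386 and 0.573 FPKM in knockout mice, against 0.247, 0.222 and 0.144 FPKM in controls. Cenpe, a kinetochore motor, had 0.543, 0.373 and 0.665 FPKM in knockout mice, against 0.342, 0.138 and 0.225 FPKM in controls, and Cenpf had 0.304, 0.271 and 0.457 FPKM in knockout mice, against 0.180, 0.128 and 0.151 FPKM in controls. None of these 3 overlapped between the groups. Cenpa, by contrast, had 6.04, 3.91 and 7.39 FPKM in knockout mice, against 5.95, 2.10 and 4.63 FPKM in controls, a wide overlap. Cdc20 differed by 0.62 (SE 0.27) with overlap. Ube2c, the ubiquitin-conjugating enzyme of the anaphase-promoting complex, had 3.48, 2.42 and 3.46 FPKM in knockout mice, against 3.93, 2.42 and 3.26 FPKM in controls.

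**Figure D2:**
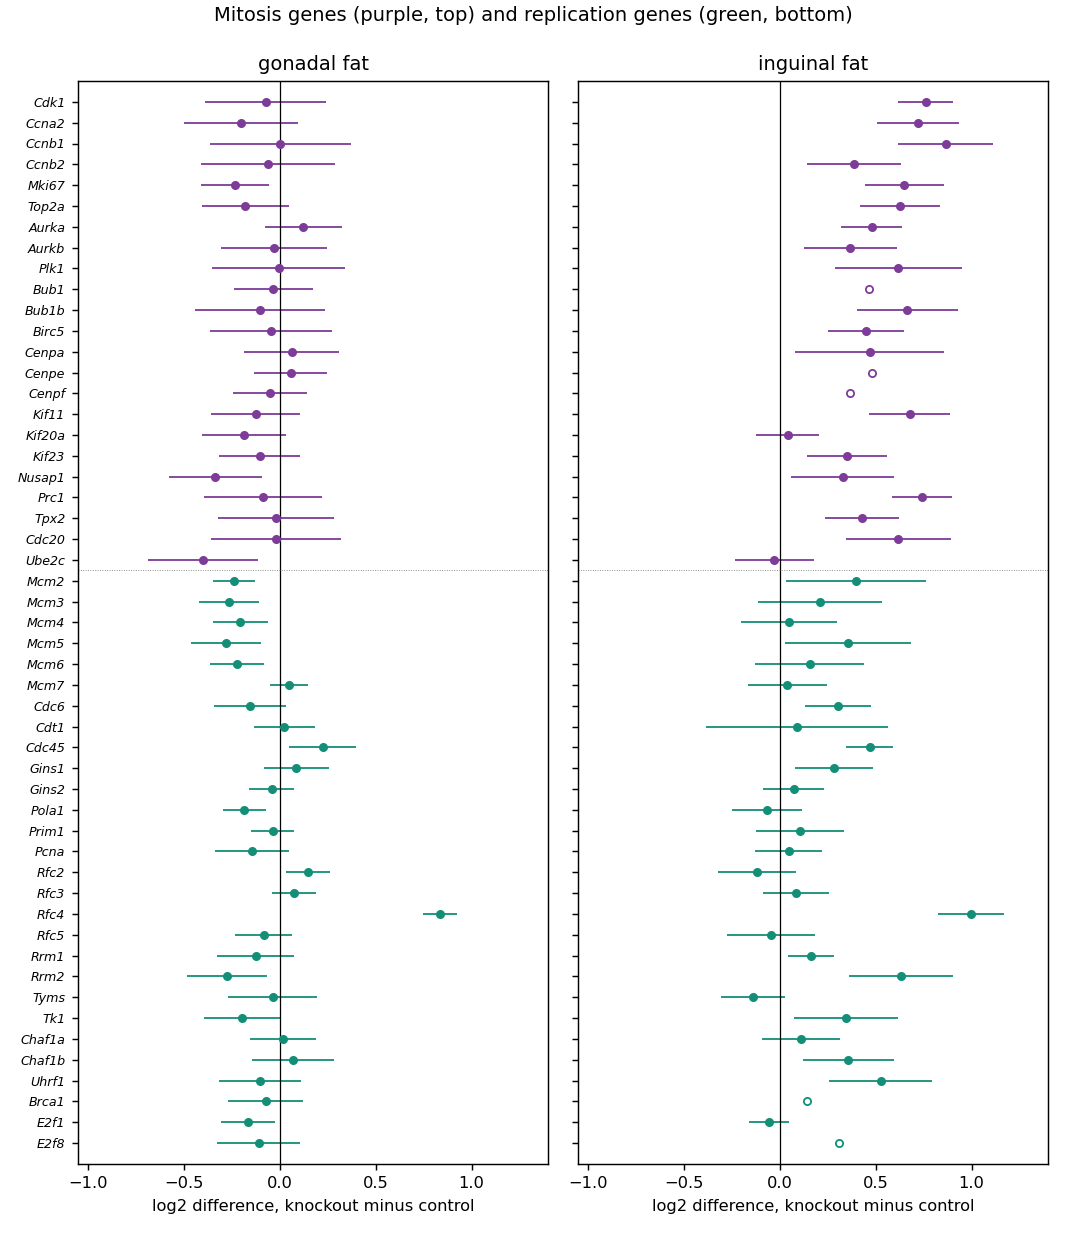
Log2 difference, knockout minus control, of each of the 51 genes in gonadal fat (left) and inguinal fat (right), with bars of 1 SE; open points are genes under the filter on low values, which have no SE. Inguinal mitosis genes (purple) lie right of 0 except Ube2c at -0.03, with a median of 0.48, while Rfc4 is the replication gene (green) farthest right in both depots, at 0.83 in gonadal and 0.997 in inguinal fat.

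Replication genes differed less in inguinal fat. Of the 28, 23 had a difference above 0, the median was 0.15, and at an unadjusted p under 0.05 2 of the 26 tested were higher and none lower, where 3.29% of all genes were higher. The count was 4 without M9 and 2 or 3 without any other mouse. In 3 of 28, Rfc4, Cdc45 and Cdc6, every knockout mouse lay above every control, as in 5.28% of all genes. All 11 licensing and helicase genes had differences above 0, yet for the 6 MCM subunits, which form the ring of the helicase, these ran from 0.04 for Mcm7 to 0.40 for Mcm2 with overlapping groups and adjusted p of 0.672 or more. Cdc45 (chr16:18780447-18811987), which turns the MCM ring into an active helicase, had 4.99, 3.93 and 4.49 FPKM in knockout mice, against 2.98, 3.33 and 2.94 FPKM in controls, without overlap (0.47, SE 0.12, adjusted p = 0.192). Its partners Gins1 and Gins2 differed by 0.28 and 0.07. Cdc6, a loader of MCM, had 0.654, 0.777 and 0.838 FPKM in knockout mice, against 0.608, 0.357 and 0.604 FPKM in controls (0.30, SE 0.17, adjusted p = 0.472), whereas Cdt1, the other loader, differed by 0.09 (SE 0.47).

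Among genes for nucleotide supply, Rrm2, the regulated subunit of ribonucleotide reductase, had 3.90, 2.20 and 4.86 FPKM in knockout mice, against 2.40, 1.74 and 2.12 FPKM in controls (0.63, SE 0.27, adjusted p = 0.355), with M9 inside the range of the controls. Rrm1, Tk1 and Tyms, which also supply deoxynucleotides, differed by 0.16, 0.35 and -0.14. Uhrf1, which carries DNA methylation through replication, had 3.44, 1.87 and 3.87 FPKM in knockout mice, against 2.24, 1.50 and 1.99 FPKM in controls (0.53, SE 0.27, adjusted p = 0.430). Chaf1b, of the histone chaperone CAF-1, had 0.786, 0.800 and 1.31 FPKM in knockout mice, against 0.849, 0.371 and 0.721 FPKM in controls (0.36, SE 0.24, adjusted p = 0.543). All 3 of these genes overlapped between the groups. Pcna, the primase subunit Prim1 and the polymerase subunit Pola1 differed by 0.05, 0.11 and -0.07. E2f1, an activating E2F factor, differed by -0.06, and E2f8, a repressing one too low to test, by 0.31.

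The call depended on how the mouse and the lymphocytes of a pad were treated. With each library counted as a replicate, and with DESeq2 on rebuilt counts summed per mouse, the same 11 genes passed an adjusted p under 0.05, all higher in knockout mice: Rfc4, Cdc45, Aurka, Bub1b, Ccna2, Ccnb1, Cdk1, Kif11, Mki67, Prc1 and Top2a, where 3.57% and 1.72% of all genes were called higher. edgeR called none of the 51, and 2 genes of all 13621 (0.0147%). At an unadjusted p under 0.05 it had 6 replication and 13 mitosis genes higher and none lower, where 4.84% of all genes were higher. Rescaling with TMM factors moved the median of all genes to 0.01 and the mitosis median to 0.58, with 23 of 23 above 0. Leaving out each mouse in turn kept the mitosis median between 0.39 and 0.60. The replication median ran between 0.02 and 0.29, with 0.02 without M12 and 0.03 without M7. The authors' deposited table for inguinal fat, which lists 2220 genes as changed, holds 24 of the 51 genes, 7 replication and 17 mitosis, all higher in knockout mice. In the authors' deposited table Cdk1 has a log2 fold change of 1.05 (adjusted p = 4.64e-10), Ccnb1 of 1.16, Mki67 of 0.90, Kif11 of 1.04 and Rfc4 of 1.13. That list carries read counts of 6 libraries per group, and whether its test counted the 2 libraries of a mouse as replicates is not stated. Its p-values may therefore not measure the spread between mice, as those of the limma fit do.

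Inguinal pads differed widely in lymphocyte transcripts, and the differences were followed within like pads. The 10 B cell markers, such as Cd79a, summed to 212, 4.92 and 351 FPKM in knockout mice M5, M9 and M12, against 358, 4.27 and 234 FPKM in controls M6, M7 and M10. M9 and M7 thus had few such transcripts, and the other 4 pads many. Between M9 and M7, 22 of 23 mitosis genes (median 0.41) and 22 of 28 replication genes (median 0.17) were higher in the knockout pad, as were 37.6% of all 13621 genes (median -0.06). That is 1 mouse against 1, and M7 had the lowest mitosis mean of all pads, 0.34 against 0.81 in M9. The counts are thus of genes and not of replicates. Among the other 4 pads, 20 of 23 mitosis genes and 12 of 28 replication genes were higher in both M5 and M12 than in both M6 and M10, as were 12.2% of all genes. The pads were divided by the B cell values themselves, and neither comparison tests the part of lymphocytes in the differences. With the mean B cell level as a covariate limma called 1 replication gene, Rfc4, and 6 mitosis genes (Ccna2, Cdk1, Kif11, Mki67, Prc1 and Top2a) higher, where 0.793% of all genes were called higher.

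Germinal centres, where B cells divide fast, were tracked by 5 markers, of which 4 had a difference above 0. They summed to 10.4, 2.60 and 6.81 FPKM in knockout pads, against 5.91, 2.52 and 4.60 FPKM in control pads. In gonadal pads the same sum was higher, 11.4 to 20.6 FPKM. It was highest in control M7, where 2 of the 5 markers were at 0 and B cell markers were lowest of the gonadal pads, 64.7 FPKM. The sum is thus not specific to B cells. Rgs13, a regulator of G protein signalling among these markers, had 3.36, 0.0160 and 1.32 FPKM in knockout pads M5, M9 and M12, against 0.614, 0 and 0.258 FPKM in control pads. It was thus higher in M5 and M12 than in any control pad, and at or near 0 in M9 and M7. Rgs13 is the only 1 of the 5 markers given per pad here, and its values do not describe the list. The part of germinal centre cells in the values of M5 and M12 was not tested.

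**Figure D3:**
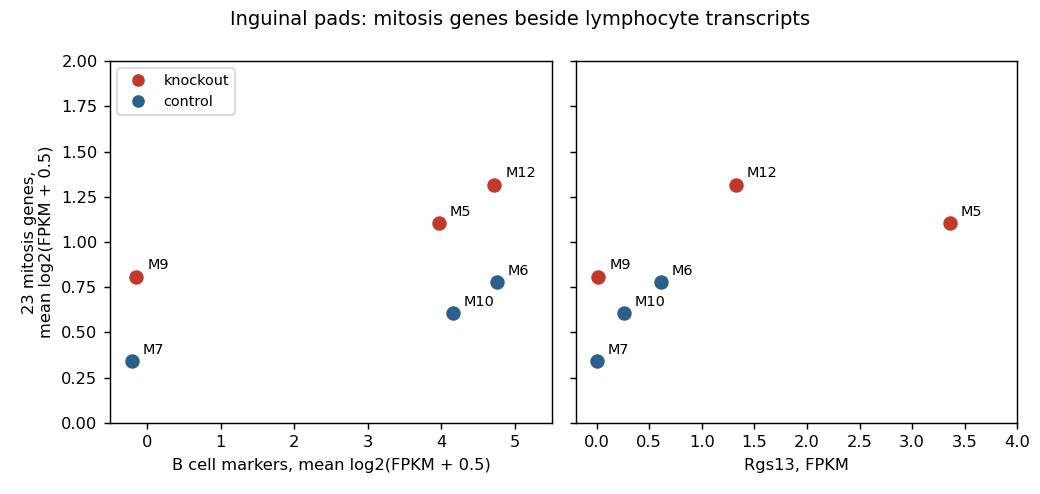
Mean log2(FPKM + 0.5) of the 23 mitosis genes in each inguinal pad against the mean of the 10 B cell markers (left) and against Rgs13 in FPKM (right); knockout pads red, control pads blue. M9 (knockout, 0.81) and M7 (control, 0.34) have the fewest B cell transcripts, and M5 and M12 have the most Rgs13, 3.36 and 1.32 FPKM.

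Other cell types of the inguinal pads were followed by their markers, none of which had an adjusted p under 0.05. All 7 red blood cell markers (median -1.67), all 10 macrophage markers (-1.01) and all 10 skeletal muscle markers (-2.33) had differences below 0. So did 9 of 10 adipose progenitor markers (-0.36). Endothelial markers were above 0 in 6 of 10 (0.02), T and NK cell markers in 6 of 10 (0.04), B cell markers in 5 of 10, adipocyte markers in 4 of 10 (-0.16), epithelial markers in 9 of 10 (0.26) and mesothelial markers in 2 of 8 (-0.04). Their part in the differences of the mitosis genes was not tested.

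Further genes of the pathway were counted in the same way in inguinal fat. Of 45 other mitosis genes 43 had a difference above 0 (median 0.32), and at an unadjusted p under 0.05 10 of the 31 tested were higher and 1 lower, where 3.29% of all genes were higher and 11.6% lower. Gtse1, a G2 and S phase protein, had 0.914, 0.787 and 1.34 FPKM in knockout mice, against 0.384, 0.356 and 0.431 FPKM in controls (0.75, SE 0.18, adjusted p = 0.173). Pbk, a mitotic kinase, differed by 0.68 and Ncaph, a condensin subunit, by 0.56. Of 40 other replication genes 32 were above 0 (median 0.08), with 2 of 33 tested higher and none lower at an unadjusted p under 0.05, a share close to that of all genes. Recql4, a helicase at origins, had 1.19, 1.20 and 1.17 FPKM in knockout mice, against 0.424, 0.543 and 0.485 FPKM in controls (0.78, SE 0.13, adjusted p = 0.133). The replicates of each group were close together, and the groups were far apart. Gins4, of the GINS complex, differed by -0.17. Of 18 regulators 8 were above 0 (median -0.03). Lin9, a core subunit of the MuvB complex, had 2.35, 2.30 and 2.23 FPKM in knockout mice, against 1.50, 1.67 and 1.61 FPKM in controls (0.42, SE 0.11, adjusted p = 0.195). E2f3 differed by 0.20 and E2f6 by -0.16. Foxm1 and Mybl2, the late factors of the class and named after their values were seen, differed by 0.28 (SE 0.20) and 0.36 (SE 0.23) with overlap.

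In gonadal fat most genes of both classes had differences just below 0 in knockout mice, and Rfc4 lay far above the rest. Of the 28 replication genes 9 had a difference above 0 (median -0.09), and of the 23 mitosis genes 4 (median -0.06), where 44.2% of all 14851 genes tested were above 0 (median -0.02). No gene of 14851 (0%) passed the limma adjusted p of 0.05, while 1291 (8.69%) had an unadjusted p under 0.05, 653 of them (4.4%) higher in knockout mice. Of the 51 genes Rfc4 alone had such a p, and it alone lay above every control in every knockout mouse, as 6.79% of all genes did. edgeR also called 0 genes. DESeq2 called 310 and the fit with each library as a replicate 1125, with Rfc4 as the only one of the 51 in each, where 1.37% and 3.83% of all genes were called higher. Without control mouse M7 the mitosis median was 0.17 with 20 of 23 above 0, and without knockout mouse M12 it was 0.03, so its sign rests on single mice. Pads M5 (knockout) and M7 (control) had the highest mitosis means, 2.38 and 2.52, and also the lowest means of endothelial markers, 3.48 and 3.58, where the other 4 pads had 3.89 to 4.34. Its part in the mitosis values was not tested. Markers of the male reproductive tract, which adjoins this pad, summed to 0.295, 1.57 and 5867 FPKM in knockout mice M5, M9 and M12, against 448, 1.50 and 3144 FPKM in controls M6, M7 and M10. With their mean as a covariate the medians were -0.05 for the mitosis and -0.09 for the replication genes.

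Of the 6 MCM subunits 5 had differences below 0 and Mcm7 one of 0.05. Mcm2 had 6.75, 5.57 and 6.53 FPKM in knockout mice, against 6.71, 8.08 and 7.69 FPKM in controls (-0.24, SE 0.11, adjusted p = 0.619). Mcm3 (-0.26) had 9.48, 7.61 and 6.79 FPKM in knockout mice, against 8.71, 11.3 and 8.94 FPKM in controls, and Mcm6 (-0.22) had 9.04, 7.72 and 7.05 FPKM in knockout mice, against 8.67, 10.99 and 8.39 FPKM in controls. The groups overlapped for all 3 subunits, with M7 the highest pad for each. Mcm5 (-0.28) had 7.22, 5.44 and 5.48 FPKM in knockout mice, against 6.48, 9.45 and 6.56 FPKM in controls, with M7 the highest pad. Pola1, the catalytic subunit of polymerase alpha, had 2.13, 2.07 and 2.25 FPKM in knockout mice, against 2.83, 2.27 and 2.44 FPKM in controls (-0.18, SE 0.11, adjusted p = 0.721). It was the only one of the 51 genes with every knockout mouse below every control, as 7.54% of all genes were. Of the mitosis genes Ube2c had 7.36, 5.005 and 3.63 FPKM in knockout mice, against 6.14, 9.40 and 5.72 FPKM in controls (-0.40, SE 0.29, adjusted p = 0.767). Nusap1, a spindle protein, had 3.30, 2.02 and 1.75 FPKM in knockout mice, against 2.64, 3.87 and 2.64 FPKM in controls (-0.33). Kif20a had 2.31, 1.89 and 1.68 FPKM in knockout mice, against 1.67, 3.16 and 2.21 FPKM in controls (-0.18). These 3 genes overlapped between the groups, M7 being the highest pad for each of them. Ccna2 had 5.94, 4.18 and 3.12 FPKM in knockout mice, against 4.03, 7.34 and 4.15 FPKM in controls (-0.20), and Top2a had 7.40, 5.26 and 4.82 FPKM in knockout mice, against 5.15, 8.56 and 6.34 FPKM in controls (-0.18), again with overlap. Mki67 had 3.77, 2.88 and 2.45 FPKM in knockout mice, against 3.05, 4.14 and 3.67 FPKM in controls, and Cdk1 had 5.88, 4.25 and 3.03 FPKM in knockout mice, against 3.26, 6.76 and 4.07 FPKM in controls. Mki67 and Cdk1 overlapped widely, with M5 and M7 highest for both, and M7 was also the highest pad for Ccna2 and Top2a.

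The wider pathway had medians near 0 in gonadal fat, with 15 of 40 other replication genes, 17 of 45 other mitosis genes and 8 of 18 regulators above 0 (medians -0.03, -0.05 and -0.03). Pold1, of polymerase delta, had 5.95, 6.22 and 5.83 FPKM in knockout mice, against 7.98, 7.20 and 6.97 FPKM in controls (-0.28, SE 0.08, adjusted p = 0.459). E2f2, an activating E2F, had 3.25, 2.96 and 2.10 FPKM in knockout mice, against 4.49, 3.56 and 4.01 FPKM in controls (-0.48, SE 0.17, adjusted p = 0.520). In both every knockout mouse lay below every control. Prim2 and Timeless, at the fork, differed by -0.22 and -0.24; Smc4, Cdc25b and Anln, of mitosis, by -0.14, -0.23 and -0.33; and the factors E2f4 and Tfdp1 by -0.17 and -0.16. Differences of the cell type markers were below 0 for all 10 T and NK cell markers (median -0.50), all 10 B cell markers (-0.30), all 7 red blood cell markers (-1.57), 9 of 10 macrophage markers (-0.37) and 9 of 10 progenitor markers (-0.28), and above 0 for 9 of 10 adipocyte markers (0.48), with no adjusted p under 0.05.

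Rfc4, a small subunit of replication factor C, which loads PCNA, was higher in every knockout mouse than in any control in both depots, without passing the threshold of the limma fit. It lies at chr16:23113943-23127737 on the minus strand in mm10. In gonadal fat it had 8.28, 8.19 and 7.76 FPKM in knockout mice, against 4.79, 4.06 and 4.11 FPKM in controls. The groups were far apart and the mice of a group close together. The log2 difference was 0.83 (SE 0.09, limma adjusted p = 0.395), a 1.87-fold ratio of means, and Rfc4 ranked 3 of 14851 by p. In inguinal fat it had 7.13, 7.003 and 8.97 FPKM in knockout mice, against 4.39, 2.86 and 3.65 FPKM in controls (0.997, SE 0.17, adjusted p = 0.139), a 2.12-fold ratio, at rank 113 of 13621. The exact permutation p was 0.1 in each depot, the smallest possible. Across alternatives its adjusted p ran between 3.15e-06 and 0.950 in gonadal fat, and between 2.00e-07 and 0.461 in inguinal fat, while its log2 difference was at least 0.77 in gonadal and 0.86 in inguinal fat under each of them. The authors' deposited tables list it in both depots, at 0.88 (adjusted p = 1.93e-13) in gonadal and 1.13 (6.03e-17) in inguinal fat, and it is the only one of the 51 in their gonadal table of 1808 genes. Whether the authors' test counted the 2 libraries of a mouse as replicates is not stated, so their p-values may not measure the spread between mice. The knockout effect did not differ detectably between depots (inguinal minus gonadal 0.16, SE 0.20, adjusted p = 0.9998).

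The other subunits of the clamp loader had differences near 0. In gonadal fat Rfc1, the large subunit, differed by 0.01, Rfc2 by 0.15, Rfc3 by 0.08 and Rfc5 by -0.08. In inguinal fat these differed by -0.11, -0.12, 0.09 and -0.04. All overlapped between the groups. Pcna, which the complex loads, differed by -0.14 in gonadal and 0.05 in inguinal fat. The promoter of Rfc4 shown above holds none of the 4 elements searched, and neither does that of Rfc5. Those of the replication genes Tyms, Tk1, Chaf1b and E2f1 hold none either, so the lack is not particular to Rfc4.

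Genes beside Rfc4 on chromosome 16 were read after its values were seen. Eif4a2, a translation factor gene at chr16:23107444-23114136 on the plus strand, overlaps the end of Rfc4, and since no source states whether counting used strand, reads in the overlap may be shared. In inguinal fat Eif4a2 had 127, 97.0 and 118 FPKM in knockout mice, against 161, 137 and 176 FPKM in controls, a difference of -0.47 (SE 0.14, adjusted p = 0.231), opposite in sign to Rfc4. In gonadal fat it differed by -0.15. On the other side lies Adipoq, the adiponectin gene, at chr16:23146536-23158028 on the plus strand. It differed by 0.17 in gonadal fat with overlap. In inguinal fat it differed by -0.30 (SE 0.17, limma adjusted p = 0.487), with every knockout mouse below every control. Beyond Adipoq, the non-coding gene B630019A10Rik (chr16:23175288-23224446, plus strand) had 0.928, 0.609 and 0.783 FPKM in inguinal fat of knockout mice, against 0.0831, 0.0508 and 0.194 FPKM in controls. There every knockout mouse was above every control. In gonadal fat B630019A10Rik had 0.101, 0.267 and 0.263 FPKM in knockout mice, against 0.151, 0.0399 and 0.115 FPKM in controls, with overlap, and its means lay under the filter, so it was not tested. St6gal1, farther along, differed by -0.53 in gonadal fat, with every knockout mouse below every control, and by -0.05 in inguinal fat with overlap. The labels do not state which promoter drives Cre in these mice.

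**Figure D4:**
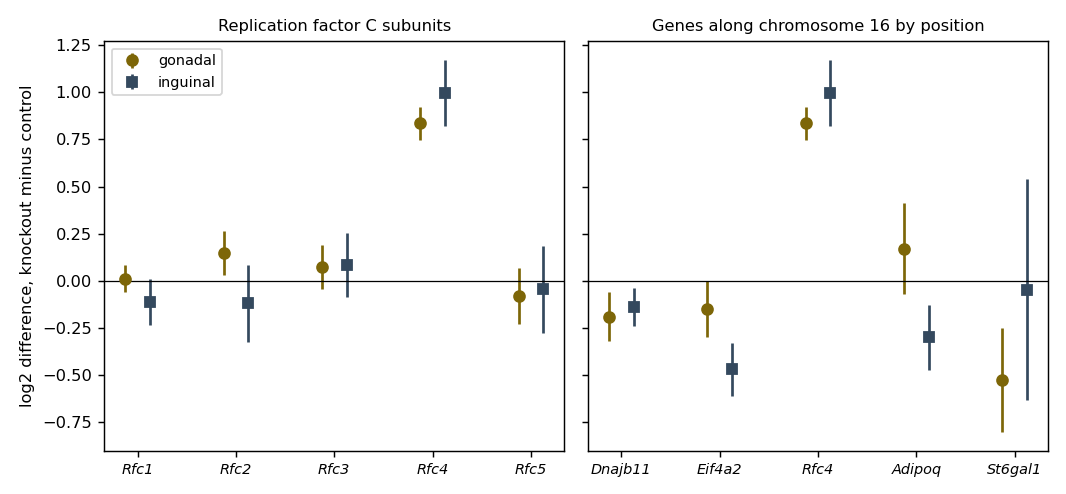
Log2 difference, knockout minus control, with bars of 1 SE, of the 5 replication factor C subunits (left) and of Rfc4 and selected neighbours (right). The neighbours are in their order on chromosome 16, and circles are gonadal, squares inguinal fat. Genes not drawn include B630019A10Rik, under the filter, at 0.23 in gonadal and 1.06 in inguinal fat, and Kng2 at -0.99 and -0.31. Rfc4 stands at 0.83 and 0.997, and the other subunits lie between -0.12 and 0.15.

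**Figure D5:**
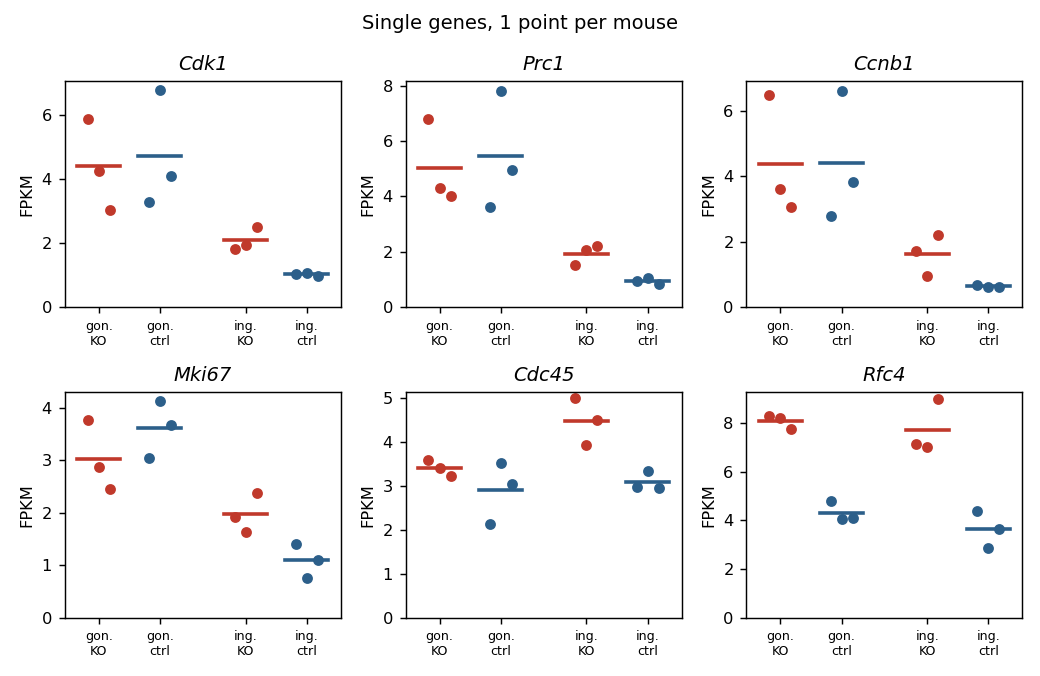
FPKM of 6 genes in each mouse, with group means as lines, in gonadal and inguinal fat of knockout (red) and control (blue) mice. Rfc4 separates the genotypes in both depots, and Cdk1, Prc1, Ccnb1, Mki67 and Cdc45 in inguinal fat.

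Whether the knockout effect differed between depots was tested with an interaction term over all 12 pads. All 23 mitosis genes had a larger difference in inguinal than in gonadal fat (median of inguinal minus gonadal 0.50), as had 25 of 28 replication genes (0.20), where 33.6% of all 14577 genes did (median -0.08). No gene (0%) passed the limma adjusted p of 0.05, and edgeR called 0 and DESeq2 16. With each library as a replicate Mki67 alone of the 51 was called, where 0.268% of all genes were called higher. At an unadjusted p under 0.05, 6 mitosis genes and 1 replication gene were higher, where 0.761% of all genes were, 111 of 14577. Mki67 differed most by p (0.88, SE 0.28, adjusted p = 0.935), followed by Top2a (0.81), Rrm2 (0.91), Kif11 (0.80), Ccna2 (0.92), Cdk1 (0.83) and Prc1 (0.83). Cdc6, Uhrf1 and Mcm5 differed by 0.46, 0.63 and 0.64. Without control mouse M7 the mitosis median was 0.23 and the replication median 0.01, with no gene of the 51 at an unadjusted p under 0.05, and without knockout mouse M12 the medians were 0.33 and 0.09 with none either. Without control mouse M10 2 mitosis genes had such a p, and with the animal number as a block 1 did.

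Gonadal fat held more of these transcripts than inguinal fat in both genotypes, whose comparisons share no pads. In control mice 22 of the 22 mitosis genes tested and 18 of 28 replication genes rose (limma, adjusted p under 0.05) and none fell, where 3904 of all 14505 genes (26.9%) rose and 2106 (14.5%) fell. With the animal number as a block, since both pads come from the same mice, 21 mitosis and 12 replication genes rose, where 22.3% of all genes did. The median difference was 1.50 for the mitosis and 0.78 for the replication genes, against 0.18 for all genes. TMM factors moved the median of all genes to 0.03, with 3133 genes higher and 2881 lower, and left 22 mitosis and 16 replication genes called, where 21.7% of all genes were called higher. Prc1 had 3.63, 7.82 and 4.97 FPKM in gonadal fat of controls, against 0.951, 1.04 and 0.843 FPKM in inguinal fat (1.99, SE 0.26, adjusted p = 0.00244). Ccnb1 had 2.79, 6.62 and 3.82 FPKM in gonadal fat, against 0.687, 0.609 and 0.599 FPKM in inguinal fat (2.04, SE 0.29, adjusted p = 0.00296). For both, every gonadal pad lay above every inguinal pad, as for 38.7% of all genes. Cdc20 averaged 10.6 ± 4.54 FPKM in gonadal fat and 1.73 ± 0.407 FPKM in inguinal fat of controls (SD, n = 3 each), a rise of 2.25. Top2a averaged 6.68 ± 1.73 FPKM in gonadal fat and 1.83 ± 0.353 FPKM in inguinal fat, a rise of 1.61. The largest changes of replication genes were in nucleotide supply, with Tk1, thymidine kinase, at 1.70, Rrm2 at 1.47 and Rrm1 at 1.33, and in Chaf1b at 1.53. Cdc45 (-0.10), Rfc4 (0.23) and Rfc2 (0.29) did not pass. Leaving out control mouse M10 left 5 of 22 mitosis and 2 of 28 replication genes called higher, where 1089 of all 14239 genes were. The replication share there was no higher than that of all genes. Macrophage markers summed to 2764, 2639 and 2322 FPKM in gonadal fat of controls, against 699, 351 and 493 FPKM in inguinal fat, and their part in the depot differences was not tested.

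In knockout mice fewer of the 51 genes passed the same test. Of the 23 mitosis genes 16 rose and none fell, and of the 28 replication genes 13 rose and 1 fell, where 5122 of all 14593 genes (35.1%) rose and 1849 (12.7%) fell. The medians were 0.88 for mitosis, 0.56 for replication and 0.27 for all genes. All 23 mitosis genes were higher in gonadal fat, as were 69.2% of all genes, by 0.50 (Mki67) to 1.62 (Cdc20). Kif20a had 2.31, 1.89 and 1.68 FPKM in gonadal fat of knockout mice, against 0.541, 0.635 and 0.637 FPKM in inguinal fat (1.15, SE 0.16, adjusted p = 0.00229). Ccnb2 had 11.2, 5.70 and 6.50 FPKM in gonadal fat, against 2.75, 1.84 and 2.38 FPKM in inguinal fat (1.51, SE 0.27, adjusted p = 0.00589). Cdc20 rose by 1.62 and Prc1 by 1.17. Chaf1b rose by 1.24, Rrm1 by 1.05, Rfc5 by 0.95 and E2f1 by 0.65. Cdc45 fell, with 3.58, 3.40 and 3.23 FPKM in gonadal fat, against 4.99, 3.93 and 4.49 FPKM in inguinal fat (-0.34, SE 0.11, adjusted p = 0.0446). That call was lost with the animal number as a block, where 12 replication and 13 mitosis genes and 32.1% of all genes rose and none of the 51 fell. TMM factors moved the median of all genes to 0.03, with 3091 genes higher and 3061 lower, and left 9 mitosis and 6 replication genes called higher and 1 lower, where 21.2% of all genes were called higher. edgeR called 6 replication genes higher and 1 lower, and the fit with no filter 7 higher, where 22% and 19.6% of all genes were called higher. Without mouse M5, 3 of 23 mitosis and 2 of 28 replication genes were called higher, where 2124 of all 14780 genes were. Without M9 these were 4 and 3, where 2879 of all 14817 genes were called higher. Neither class exceeded the share of all genes in either fit. Whether the depot difference itself depended on genotype is the interaction test above, with its sign reversed.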

How the data were processed

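RNA of both fat pads was extracted with Qiagen RNeasy reagents and made into libraries with NEBNext Ultra reagents, as the labels' protocols state. CASAVA, STAR and mm10 are named in the submitters' processing notes. How reads were counted, and whether strand was used, no source here states. FPKM values of 35275 genes are deposited for 24 libraries. The authors' lists of changed genes hold, according to the file headers, deposited read counts and group means, here called a signal because the authors scaled them by size factors. They also hold a log2 fold change by the authors and their p-value, raw and adjusted. The 24 FPKM columns of those lists were not used.

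Names starting with z were read as knockout and f as control, and names ending in e as gonadal and s as inguinal. Columns were mapped to groups and not to single GEO samples. FPKM of the 2 libraries of an animal's pad were averaged. Genes with a mean of at least 0.5 FPKM over the mice of a fit were tested with limma 3.58.1 (two-sided, with a trend, under R 4.3.3) on log2(FPKM + 0.5). Adjustment was by Benjamini-Hochberg over all genes tested, with a threshold of 0.05. Fold changes on that scale understate those of low genes. Read counts rebuilt from FPKM, gene length and library totals were whole for 100% of values (tolerance 0.001), and were summed per mouse and pad for edgeR 4.0.16 and DESeq2 1.42.0. The limma fit of the knockout comparisons was also run on simulated counts with noise drawn separately for each gene, and no result here rests on that run. Exact permutation tests over 20 regroupings of 6 mice are two-sided.

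Members, pathway lists and marker lists were chosen with earlier results of these data known. Named genes are the 6 of each class with the smallest p in each knockout comparison, given per mouse, 4 of each class in the interaction and each depot comparison, 3 of each other list, the 3 most expressed of each class, Mki67 and Foxo1. A gene this rule takes is not reported here. Further genes were named after their values were seen, to complete a role or complex or because the groups did not overlap. The numbers link gonadal and inguinal pads of an animal, as the names show; deviations of the pads of an animal correlated at -0.095 to 0.136. Alternatives were other pseudocounts, filters, scalings, tools, covariates, a block and leaving out each mouse.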

Additional observations from a re-analysis of the deposited data

How the results depend on the processing

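Counts of called genes in the knockout comparisons depended on the replicate and the tool, and those between depots most on single mice. In gonadal fat, 0 genes were called in the fit reported, 310 with DESeq2, 1125 with each library as a replicate, and 0 to 1 when a mouse was left out; 1 replication member was called with DESeq2 and 1 with each library. In inguinal fat, 3 genes were called, 574 with the B cell covariate, 661 with DESeq2, 2189 with each library and 0 to 78 with a mouse left out (78 without control mouse M7, 0 without each of the other 5). Called members were 1, 2 and 2 for replication and 6, 9 and 9 for mitosis with the covariate, DESeq2 and each library. The inguinal mitosis median was 0.87 with DESeq2, 0.85 with edgeR and 0.73 with a pseudocount of 0.1. For the interaction, DESeq2 called 16 genes and each library 265, with 1 mitosis member; the mitosis median was 1.06 with DESeq2, 1.07 with edgeR and 0.85 with a pseudocount of 0.1.

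Between depots in control mice, each library called 9100 genes, and a mouse left out gave 1534 to 5257 genes, 2 to 16 replication members, 5 to 23 mitosis members, and medians of 0.56 to 0.99 (replication) and 1.14 to 1.75 (mitosis). The mitosis median was 1.86 with DESeq2, 1.88 with edgeR and 1.84 with a pseudocount of 0.1. In knockout mice a mouse left out gave 3047 to 5911 genes, 2 to 11 replication members, 3 to 20 mitosis members and a mitosis median of 0.70 to 1.19. Replication members called were 7 of 28 with edgeR and 7 with TMM factors, 6 of them higher in each, and 7 with no filter, all higher. Of all genes 22%, 21.2% and 19.6% were called higher with edgeR, TMM factors and no filter. The replication median was 0.33 with DESeq2 and 0.31 with TMM factors. With TMM factors 9 of 23 mitosis members were called, all higher.

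With the animal number as a replicate block, the interaction called 0 genes, the depot comparison 5092 in control and 6365 in knockout mice, and 1 mitosis member had an unadjusted p under 0.05 in the interaction, against 6 without the block. Knockout and control pads come from different mice, so only the depot comparisons and the interaction have this block; the columns carry no label numbers to pair the genotypes by. Over the named members, 2069 of 2191 values kept their side of the threshold, 44 passed it only under an alternative and 78 lost it. The sign differed from the reported one in 69, none of them called in either fit, 27 in the gonadal and 26 in the inguinal knockout comparison. The gonadal replication median was 0.01 without M7, with 16 of 28 genes above 0, and the mitosis median 0.17, with 20 of 23. With 3 mice a group, a permutation p cannot go below 0.1. FPKM near the 0.5 filter, as for Bub1, Cenpe and Cenpf in inguinal fat, rest on few reads, with medians of 20.5, 54.5 and 52 reads per library. Some tested genes rest on few reads there too, such as Ccnb1 with a median of 36, Plk1 with 42.5 and Kif20a with 45.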

Other observations

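Of the pathway genes outside the 51, the mitosis genes rose in gonadal fat more often than all genes did. The replication genes and regulators rose at shares near or under that of all genes. In control mice 34 of 42 other mitosis genes tested rose in gonadal over inguinal fat and 1 fell (median of all 45 1.10), 9 of 33 other replication genes rose and none fell (median of all 40 0.25), and 5 of 17 regulators rose and 3 fell (median of all 18 0.33). In knockout mice 29 of 43 other mitosis genes rose and 1 fell (0.72), 6 of 35 other replication genes rose and 1 fell (0.19), and 5 of 17 regulators rose and 2 fell (0.27). The same comparisons called 26.9% of all genes higher and 14.5% lower in control mice, and 35.1% higher and 12.7% lower in knockout mice.

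Kng2, a kininogen gene within 300 kb of Rfc4 and named after its values were seen, had 1.03, 1.39 and 1.30 FPKM in gonadal fat of knockout mice, against 3.74, 2.61 and 2.60 FPKM in controls (-0.99, SE 0.17, limma adjusted p = 0.408), opposite in sign to Rfc4. In inguinal fat it differed by -0.31 with overlap.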
